A study of Arabidopsis thaliana with 15 samples.

Results

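The genes described here were low both in wild-type Arabidopsis thaliana seedlings given UV-B and in pif4-101 pif5-1 seedlings kept in white light, and were not lowered to the same extent by UV-B in seedlings with a mutated UV-B receptor. They were chosen by their measured values. Counts were scaled to CPM, a gene's reads per 1000000 reads of its library, averaged over the 3 libraries of a group, and 0.5 CPM was added. A gene was kept where UV-B-treated wild type stood at 0.6 or less of white-light wild type, where pif4-101 pif5-1 also stood at 0.6 or less of white-light wild type, where UV-B-treated uvr8-6 stood at 0.7 or more of white-light uvr8-6, and where the white-light wild type mean was 3 CPM or more. The rule found 189 of the 33602 genes in the count table, of which 16601 reached 3 CPM. Of these 189 members, 162 are other nuclear genes, 24 lie in the plastid or mitochondrial genome, and 3 are ribosomal RNA genes.

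Whole seedlings in the Col-0 background were sampled at 4 days of age, 30 seedlings a library, and polyadenylated RNA was sequenced in 15 libraries from 5 groups of 3. Wild type in continuous low white light of 3.6 μmol m-2 s-1 is Col_WL, and wild type after 6 h of added narrowband UV-B is Col_6h. The uvr8-6 mutant, in the gene of the UVR8 photoreceptor, was sampled under the same conditions as uvr8-6_wl and uvr8-6_6h. The double mutant pif4-101 pif5-1 was sampled in white light only, as pif45_wl, so its response to UV-B was not measured. All groups received the same growth light and medium, with a filter that passed or blocked UV-B. Each mutant is represented by 1 genotype, and the deposited design text places the replicates on independent plates.

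UVR8 absorbs UV-B and then binds the ubiquitin ligase COP1, which changes the activity of many light-regulated genes. PIF4 and PIF5 are basic helix-loop-helix transcription factors that promote elongation of the hypocotyl, largely through auxin synthesis and auxin response, and that bind the G-box and a related E-box called the PBE-box. UVR8 signalling is known to lower PIF4 and PIF5 activity. Auxin made in the cotyledons moves to the hypocotyl, where it raises the activity of genes that loosen the cell wall.

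UVR8 was at 14.8 to 20.7 CPM in the 6 uvr8-6 libraries and at 73.9 to 109 CPM in the other 9. PIF5 was at 4.49, 4.82 and 5.29 CPM in pif45_wl and at 68.9 to 141 CPM elsewhere. PIF4 was at 79.9, 78.0 and 97.0 CPM in pif45_wl against 141, 65.7 and 174 CPM in Col_WL, so its RNA level overlapped wild type, and a gene-level count does not tell an intact transcript from a disrupted one. The libraries held 19271180 to 30406689 counted reads. In Col_WL replicate 1, genes of the organelle genomes took 0.654% and rRNA genes 1.54% of the reads, against 0.0641% to 0.182% and 0.0513% to 0.188% in the other 14 libraries. In 5 libraries, Col_WL replicate 2, Col_6h replicate 1, uvr8-6_wl replicate 2 and uvr8-6_6h replicates 1 and 3, FRO5, a copper- and iron-reductase gene that is itself a member, stood at 18.9 to 84.4 CPM against 0.0752 to 1.18 CPM in the other 10.

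Short promoter stretches of members with the motifs that PIF proteins bind are shown here, because the set is defined by low levels in a mutant of PIF genes. In the 250 bases before the annotated start, the G-box CACGTG was present in 9 of 157 protein-coding members, which is 5.73%, against 6.58% of the promoters of all 26712 protein-coding genes in the table. The PBE-box CACATG, searched on both strands and so also matched as CATGTG, was present in 37 of the 157, which is 23.6%, against 11.2% of all promoters and 11.0% of the promoters of genes with 3 CPM or more. In a window of 500 bases the shares for the PBE-box were 35.7% and 21.1%, and those for the G-box 9.55% and 9.46%, so the order of the G-box shares turned with the window. The first group of sequences holds the 6 members with the lowest product of both ratios among those with a G-box, and the second the same for the PBE-box, a set picked after the values were seen. Each sequence is read 5′ to 3′ on the gene's strand, with the motif in capitals and up to 12 bases on either side, from the RefSeq TAIR10.1 assembly. A match is a run of letters, not evidence of binding.
COR413IM1, chr1:10289667-10289692, minus strand: tcgttttccaatCACGTGtaactcgg
CAX7, chr5:5904738-5904767, minus strand: caaatatcatgaCACGTGtgatttgcatgc
JKD, chr5:745273-745302, plus strand: gatgtacacatgCACGTGtgtctatctaaa
AFP3, chr3:11384320-11384349, minus strand: ctaacaaatctcCACGTGtcaattaccaag
AFP3, chr3:11384277-11384306, minus strand: agataagcggaaCACGTGgtagcacaaaaa
AFP3, chr3:11384222-11384251, minus strand: caaaaacaaagaCACGTGacgacctgacgc
AFP3, chr3:11384161-11384190, minus strand: ctgaacataagaCACGTGtacgatcttgtc
AT1G27670, chr1:9628854-9628883, minus strand: gaacaaagggtaCACGTGtcagtttcgtcc
AT5G37990, chr5:15135182-15135211, minus strand: ggagagatgaaaCACGTGggggtcgttgaa
The PBE-box set follows.
WAG2, chr3:4799740-4799769, minus strand: tgataaaataaaCATGTGcttgcacaccca
GH3.3, chr2:9866717-9866746, minus strand: acatatcagtccCACATGtctgcccaaaac
ADS4, chr1:1936950-1936979, minus strand: aatttgtgaaaaCATGTGctattgccggta
BETA-TIP, chr1:6129804-6129833, plus strand: actctacgatctCACATGgaaagacaaaat
BETA-TIP, chr1:6129885-6129914, plus strand: atccacttggcaCACATGcatagatatata
ENODL18, chr1:2688847-2688876, plus strand: agagtgagagatCACATGgggaagagcaaa
HEC1, chr5:26765902-26765931, plus strand: aatgaccgaatgCATGTGgaatttgcactt
AFP3, which encodes an ABI5-binding protein of abscisic acid signalling, carried 4 G-boxes within 250 bases. The other G-box members of the set held 1 each. COR413IM1, a cold-regulated protein of the chloroplast inner membrane, stood at 37.5, 3.94 and 43.5 CPM in Col_WL, 4.50, 16.4 and 16.7 CPM in Col_6h and 2.82, 2.43 and 5.0 CPM in pif45_wl. Its Col_WL replicate 2 lay below all Col_6h libraries, and that of the calcium exchanger gene CAX7, at 14.7, 2.39 and 15.6 CPM in Col_WL, lay below Col_6h replicates 2 and 3. AFP3 stood at 56.1, 25.7 and 53.2 CPM in Col_WL, 15.9, 31.3 and 21.2 CPM in Col_6h and 17.4, 17.2 and 15.4 CPM in pif45_wl, where Col_WL replicate 2 lay inside the Col_6h range. The levels of WAG2, GH3.3, HEC1 and ADS4, all with a printed PBE-box, are given with their roles.

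**Figure D1:**
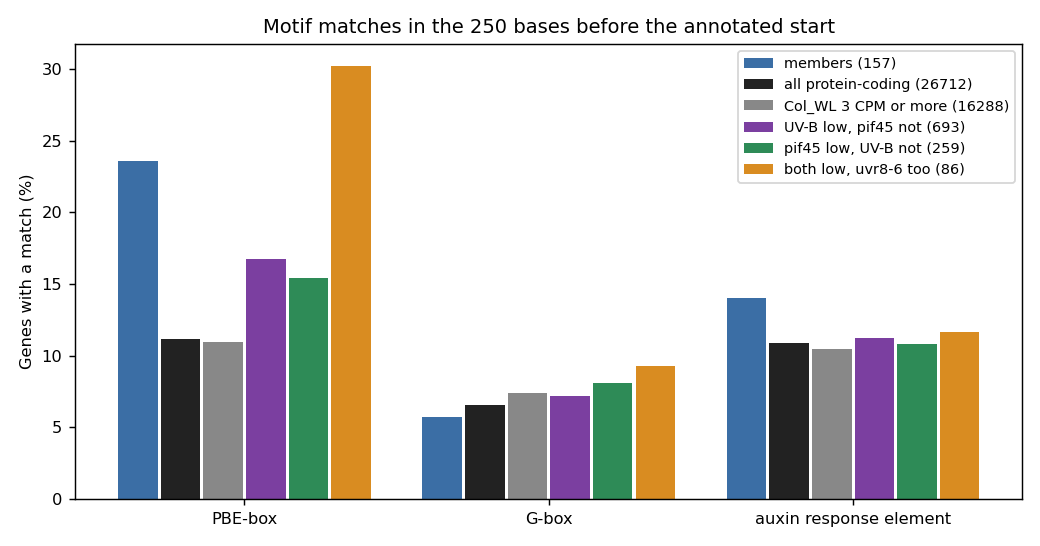
Share of promoters (%) with at least 1 match to the PBE-box CACATG, the G-box CACGTG or the auxin response element TGTCTC in the 250 bases before the annotated start, on either strand, for 6 gene sets whose sizes stand in the legend. The PBE-box was in 23.6% of the members and in 11.2% of all protein-coding genes, while the G-box share of the members, 5.73%, was below the 6.58% of all genes in this window and not in one of 500 bases.

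The PBE-box share was also above that of all promoters in 3 sets that meet only some of the criteria. It was 16.7% in 693 genes low under UV-B but not in pif45_wl, and 15.4% in 259 genes low in pif45_wl but not under UV-B. It was 30.2% in 86 genes that met both upper limits but fell below 0.7 in uvr8-6. The members are therefore not the set with the highest share. The general E-box CANNTG, which includes both motifs, was in 61.1% of the members and in 55.3% of all promoters, and the auxin response element TGTCTC was in 14% and 10.9%. These shares were compared without a test.

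The nuclear members and the organelle and rRNA members behaved differently across the libraries. Over all genes with 3 CPM or more, the median ratio was 0.894 for Col_6h to Col_WL, 0.958 for pif45_wl to Col_WL and 0.997 for uvr8-6_6h to uvr8-6_wl. The 162 nuclear members had a median ratio of 0.458 for Col_6h to Col_WL and of 0.485 for pif45_wl to Col_WL, which the rule fixed at 0.6 or less, and of 0.834 for uvr8-6_6h to uvr8-6_wl. Relative to the Col_WL mean, the median nuclear member stood at a log2 level of 0.13, -0.28 and 0.11 in the 3 Col_WL libraries. It stood at -1.28, -1.05 and -1.28 in Col_6h and at -1.15, -0.99 and -1.08 in pif45_wl. In both of those groups every library lay below every Col_WL and every uvr8-6 library. The uvr8-6 libraries lay at 0.25, -0.12 and 0.29 in white light and at -0.25, 0.04 and -0.15 under UV-B, ranges that overlap each other and Col_WL.

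**Figure D2:**
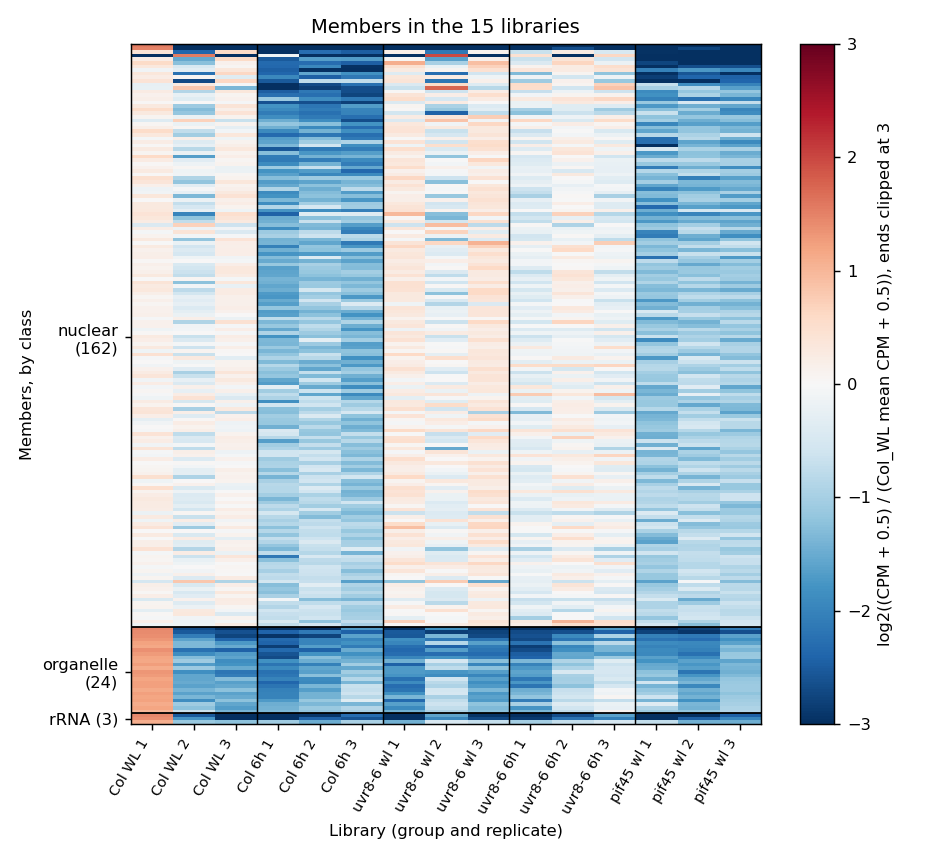
Every member (rows, ordered within class by the product of both ratios) in every library (columns), as log2 of CPM plus 0.5 over the Col_WL mean plus 0.5, red for higher and blue for lower, clipped at 3. Nuclear members are low across Col_6h and pif45_wl, while the 24 organelle and 3 rRNA members are high in Col_WL replicate 1 and low in the other 14 libraries, uvr8-6 libraries included.

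All 27 organelle and rRNA members were highest, among the Col_WL libraries, in replicate 1. The 18S rRNA gene AT3G41768 was at 15350.3, 984 and 525 CPM in Col_WL, at 542, 746 and 1159 CPM in Col_6h and at 549, 707 and 1022 CPM in pif45_wl. The other Col_WL libraries lay close to those ranges, as did uvr8-6_wl at 649.8, 1876 and 734 CPM. The other rRNA members, AT2G01010 and AT3G41979, had Col_WL means of 8.44 and 4.93 CPM, and rRNA genes have near-identical copies among which reads may be split. The mitochondrial ID ATMG00020 showed 2694, 583 and 436 CPM in Col_WL and ATMG01390 showed 1687, 285 and 220.3 CPM. Without Col_WL replicate 1 none of the 27 met the rule.

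A second white-light reference was available in uvr8-6_wl, which the rule used only as the denominator for uvr8-6_6h. The ratio of pif45_wl to uvr8-6_wl was 0.6 or less in 151 of 162 nuclear members, with a median of 0.439, and in 0 of 27 organelle and rRNA members, whose organelle median was 1.10. Over all 16601 genes with 3 CPM, 4.72% were that low. In the same way, Col_6h stood at 0.6 or less of uvr8-6_6h in 130 of 162 nuclear members and 4 of 27 others, against 7.85% of all genes. The Col_6h and pif45_wl libraries were part of the choice, so these counts describe how the members depend on the Col_WL libraries and are not separate support.

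**Figure D3:**
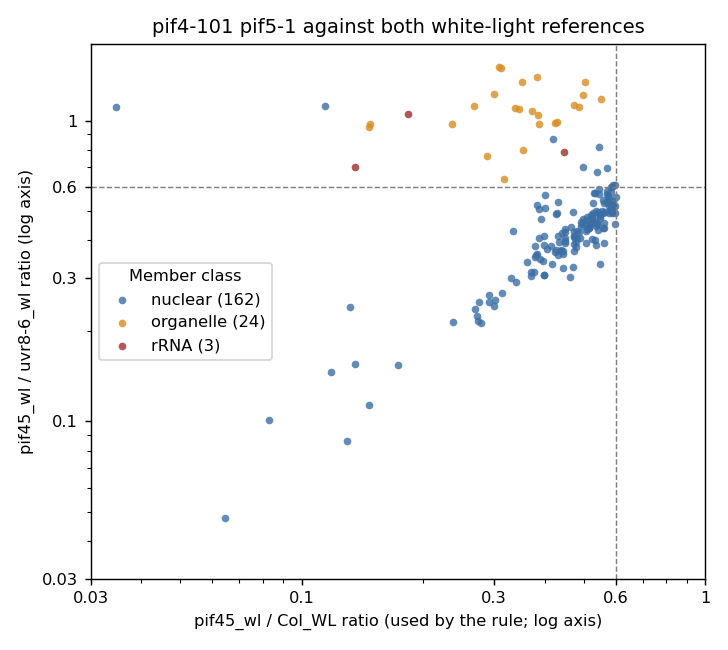
Ratio of pif45_wl to Col_WL (x axis, used by the rule) against the ratio of pif45_wl to uvr8-6_wl (y axis), both on log axes, 1 point per member, coloured by class, with dashed lines at 0.6. The organelle and rRNA members all lie above 0.6 on the y axis, and 151 of 162 nuclear members lie at or below it.

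Of the 162 nuclear members, 46 left the set without Col_WL replicate 1, 18 without replicate 2 and 28 without replicate 3. A few rested almost wholly on a single Col_WL library. AT1G15405 was at 116, 0.986 and 0.270 CPM and AT2G31141 at 24.3, 0.363 and 0.203 CPM in Col_WL, the lowest UV-B ratios of all members at 0.0310 and 0.102. Without Col_WL replicate 1 their log2 fold changes under UV-B turned to 0.50 and 0.74. FRO5 was at 0.197, 61.8 and 0.506 CPM in Col_WL and at 0.598, 1.18 and 0.855 CPM in pif45_wl, and left the set without Col_WL replicate 2. Other members at the extremes of the rule were high in all Col_WL libraries or in most. AT5G02540, annotated as a Rossmann-fold protein, was among the lowest in pif45_wl at 3.46, 5.63 and 3.81 CPM against 45.2, 7.21 and 55.2 CPM in Col_WL, and met the rule with any single library left out. UMAMIT36, an EamA-like transporter gene, stood at 0.274, 0.456 and 0.564 CPM in Col_6h against 5.23, 11.4 and 2.13 CPM in Col_WL, and also left the set without Col_WL replicate 2. AT4G11320, a papain-family protease gene and one of the most abundant members, stood at 680.2, 522 and 502 CPM in Col_WL, 164, 178 and 111 CPM in Col_6h and 315, 302 and 282 CPM in pif45_wl, in 3 separate ranges. In 3 of the 162 nuclear members more than 80% of the Col_WL signal came from 1 library, and in 13 of the 27 others.

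The rule was then applied to 2 libraries of each group and the ratios were read in the third, which had no part in that choice. With replicate 1 held out, 152 genes met the rule and their median ratios in the held-out libraries were 0.414 for UV-B in wild type and 0.410 for pif45_wl. With replicate 3 held out, the nuclear genes had medians of 0.354 and 0.427 over 152 genes. With replicate 2 held out they were 0.673 and 0.662 over 153 genes, nearer to the medians of all genes in those libraries, 0.910 and 0.929. Both ratios share the held-out Col_WL library. In the held-out libraries UV-B ratios of 0.6 or less were found in 71.7% of the nuclear genes so chosen for replicate 1, 37.3% for replicate 2 and 91.4% for replicate 3, against 7.29%, 7.69% and 11.8% of all genes. In the same nuclear genes the uvr8-6 ratio was 0.7 or more in 57.2%, 89.5% and 46.1%, against 94.5%, 94.9% and 93.7% of all genes. In each held-out replicate a smaller share of the chosen genes than of all genes therefore met the uvr8-6 limit, with the smallest gap in replicate 2. The 34 and 33 organelle and rRNA genes chosen without replicates 2 and 3 held no UV-B ratio of 0.6 or less in the held-out libraries.

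Replicate 2 of Col_WL was the lowest of its group in 111 of the 162 nuclear members, which is 68.5%, and in 22.2% of all nuclear genes with 3 CPM. It is also the Col_WL library with the lowest PIF4 level, 65.7 CPM against 141 and 174 CPM, and the one with high FRO5. Among the uvr8-6_wl libraries, replicate 2 had the lowest PIF4 at 64.1 CPM, FRO5 at 84.4 CPM and the lowest nuclear median at -0.12. In uvr8-6_6h, replicate 2 was the library without high FRO5 and had the highest PIF4, 99.4 CPM, and the highest median, 0.04. Col_6h differed, where replicate 1 had high FRO5, 18.9 CPM, and the lowest PIF4, 34.7 CPM. Its median, -1.28, was the same as that of Col_6h replicate 3, where FRO5 was at 0.0752 CPM. The part of this library difference in the members' ratios was not tested.

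Of the 162 nuclear members, 139 had every Col_WL library above every pif45_wl library, against 15.5% of all genes, and 133 had every Col_WL library above every Col_6h library, against 33.9%. In 124 Col_WL lay above both groups, against 7.52%. The rule selected on these contrasts, so nothing is read from those shares. In the fit across all genes, 143 of 188 tested members were called lower under UV-B in wild type against 11.3% of all tested genes, 109 were called lower in pif45_wl against 3.54%, and 1 was called lower under UV-B in uvr8-6 against 0.269%. None was called higher in these contrasts, where 16.1%, 1.72% and 0.85% of all tested genes were higher. The rule chose members on these same contrasts, so an excess of lower calls in wild type and pif45_wl was built in. These calls are a description, and nothing is read from their counts. ATMG01380 was too low to be tested.

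IAA29 (AT4G32280), at chr4:15583332-15584903 on the plus strand of TAIR10.1, encodes an Aux/IAA repressor of auxin response. It stood at 32.8, 9.24 and 41.8 CPM in Col_WL, 4.47, 8.55 and 8.35 CPM in Col_6h and 1.84, 1.80 and 1.94 CPM in pif45_wl. All 3 pif45_wl libraries were below all others, and Col_WL replicate 2 was close to the Col_6h range. In uvr8-6 it stood at 28.9, 8.71 and 31 CPM in white light and 17.4, 36.5 and 18.7 CPM under UV-B, overlapping ranges. The log2 fold change was -1.83 ± 0.52 (SE) under UV-B and -3.87 ± 0.60 in pif45_wl. YUC8 (AT4G28720), at chr4:14192569-14194302 on the plus strand of TAIR10.1, a flavin monooxygenase of auxin synthesis, stood at 40.1, 12 and 42.5 CPM in Col_WL, 8.81, 13.1 and 12.6 CPM in Col_6h and 12.4, 15 and 9.47 CPM in pif45_wl. Here Col_WL replicate 2 overlapped both low groups. The uvr8-6 libraries of YUC8 stood at 36.1, 14.1 and 40.8 CPM in white light and 16.0, 32.1 and 15.7 CPM under UV-B, and its uvr8-6 ratio, 0.706, was the closest to the limit of all members.

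The protein kinases WAG1 and WAG2, which phosphorylate PIN auxin carriers, were members, and WAG2 (AT3G14370) lies at chr3:4797828-4799612 on the minus strand of TAIR10.1. WAG2 stood at 19.1, 16.3 and 26.2 CPM in Col_WL, 3.37, 1.48 and 1.77 CPM in Col_6h and 4.70, 5.93 and 5.03 CPM in pif45_wl. Neither low group overlapped Col_WL, and the uvr8-6 libraries, 25.0, 21.7 and 28.2 CPM in white light and 26.5, 24.4 and 26.9 CPM under UV-B, overlapped one another. WAG1 stood at 8.93, 8.15 and 9.18 CPM in Col_WL, 2.51, 1.94 and 1.96 CPM in Col_6h and 3.38, 5.05 and 3.81 CPM in pif45_wl, again without overlap. PIN7, an auxin efflux carrier, had a smaller difference, with 226, 159.8 and 250.2 CPM in Col_WL, 122, 128 and 118 CPM in Col_6h and 96.1, 119 and 122 CPM in pif45_wl, and Col_WL again lay above both groups. WAT1, a vacuolar auxin transporter outside the gene lists, had ratios of 0.541 under UV-B and 0.435 in pif45_wl.

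GH3.3 and GH3.5 encode enzymes that conjugate auxin to amino acids. GH3.3 (AT2G23170), at chr2:9863855-9866562 on the minus strand of TAIR10.1, stood at 12.9, 18.6 and 14.7 CPM in Col_WL, 1.49, 1.97 and 2.86 CPM in Col_6h and 9.23, 3.87 and 3.45 CPM in pif45_wl, with no overlap between Col_WL and either low group. Under UV-B the uvr8-6 libraries of GH3.3 stood at 22.7, 16.3 and 25.1 CPM against 11.3, 22.7 and 11.7 CPM in white light, a ratio of 1.39. That was among the highest uvr8-6 ratios of the nuclear members, whose range was 0.706 to 1.41. GH3.5, listed as WES1 in RefSeq, stood at 89.5, 62.0 and 95.2 CPM in Col_WL, 29.9, 34.8 and 38.5 CPM in Col_6h and 35.5, 31.7 and 34.1 CPM in pif45_wl.

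Small auxin up RNA (SAUR) genes encode short proteins that promote cell expansion, and 4 of the 78 matched SAUR genes were members. SAUR1 (AT4G34770) stood at 8.19, 5.19 and 7.53 CPM in Col_WL, 2.00, 3.15 and 3.46 CPM in Col_6h and 1.07, 1.99 and 1.48 CPM in pif45_wl. SAUR13 (AT4G38825) stood at 6.36, 5.55 and 5.71 CPM in Col_WL, 2.74, 3.65 and 3.16 CPM in Col_6h and 0.983, 1.80 and 1.28 CPM in pif45_wl. In both, the pif45_wl libraries lay below the Col_6h libraries, narrowly so in SAUR1, and these below Col_WL. SAUR57 (AT3G53250) had the opposite order, with 1.61, 1.48 and 1.24 CPM in Col_6h and 2.09, 4.42 and 4.64 CPM in pif45_wl below 8.49, 5.45 and 6.04 CPM in Col_WL. SAUR27, at 6.36, 3.94 and 6.11 CPM in Col_WL, overlapped Col_6h at 1.84, 4.37 and 2.44 CPM through Col_WL replicate 2. SAUR genes have close copies, so reads may be assigned unevenly among them.

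**Figure D4:**
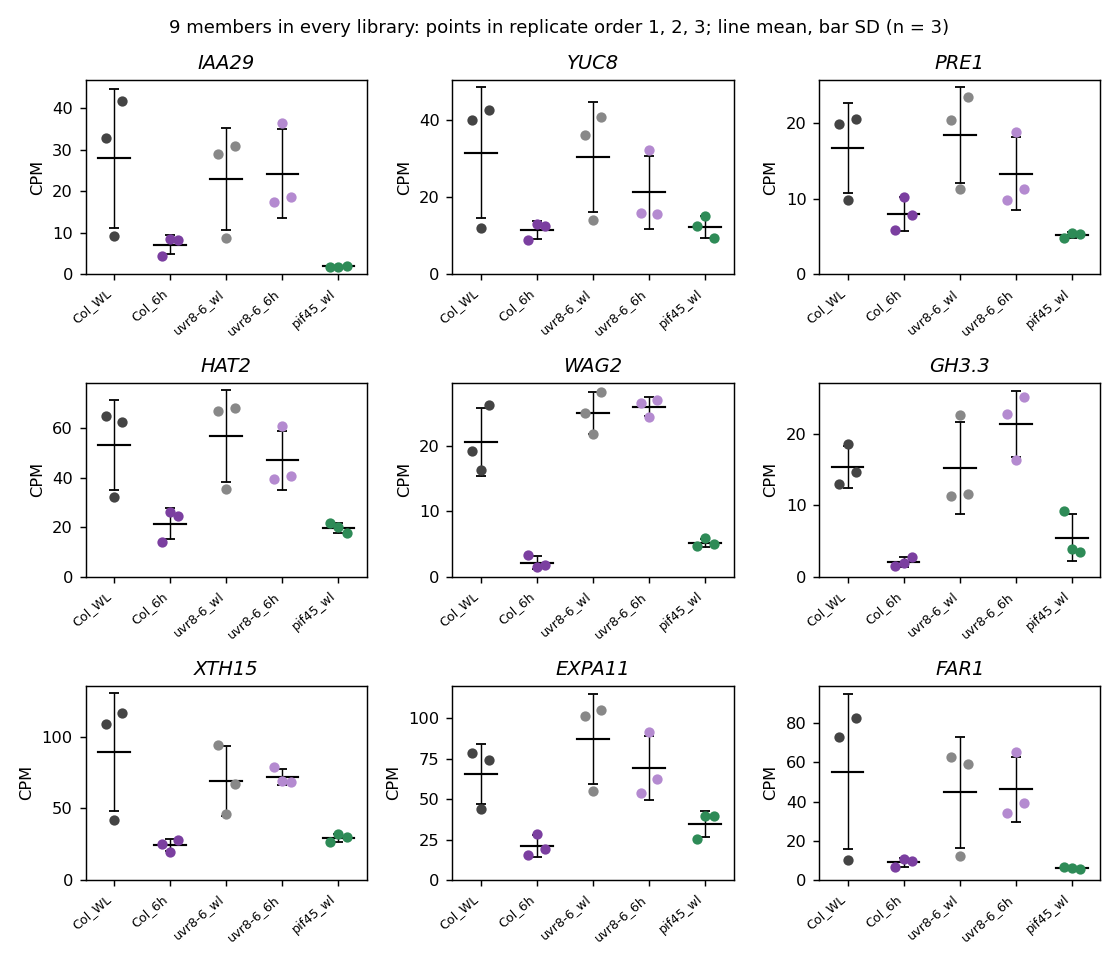
CPM of 9 members in every library, with points in the order of replicates 1, 2 and 3, a line for the mean and bars for the SD (n = 3 libraries a group), on axes that start at 0. The 3 WAG2 and GH3.3 libraries of Col_6h and of pif45_wl lie below every other library, while in IAA29, YUC8, PRE1, HAT2 and FAR1 the Col_WL and uvr8-6_wl points of replicate 2 lie far below the other 2.

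Among transcription factors, the HD-ZIP class II genes HAT2 and HAT3, known from shade responses, were members. HAT2 stood at 64.9, 32.3 and 62.3 CPM in Col_WL, 14.2, 26.1 and 24.5 CPM in Col_6h and 21.7, 20.4 and 17.8 CPM in pif45_wl, and Col_WL did not overlap either low group. HAT3 stood at 33.6, 17.2 and 32.2 CPM in Col_WL, 7.60, 11.3 and 10.4 CPM in Col_6h and 17.2, 14.3 and 15.5 CPM in pif45_wl, where Col_WL replicate 2 lay at the top of the pif45_wl range. PRE1, an atypical helix-loop-helix protein that promotes cell elongation, stood at 19.8, 9.81 and 20.5 CPM in Col_WL, 5.84, 10.3 and 7.90 CPM in Col_6h and 4.74, 5.52 and 5.26 CPM in pif45_wl. Its Col_WL replicate 2 lay within the Col_6h range and above the pif45_wl libraries. HEC1, a helix-loop-helix factor of the HECATE group, was at 10.6, 3.84 and 10.7 CPM in Col_WL and 1.25, 1.48 and 1.35 CPM in Col_6h, and its pif45_wl libraries, at 4.49, 4.09 and 5.26 CPM, lay above Col_WL replicate 2 and below the other Col_WL libraries. The homeobox gene HB-3 stood at 16.8, 11.0 and 14.7 CPM in Col_WL, 2.86, 3.00 and 3.46 CPM in Col_6h and 7.99, 8.07 and 7.01 CPM in pif45_wl, without overlap.

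Other regulators among the members, picked by their known roles after their values were seen, had intermediate ratios. PKS4, a phytochrome kinase substrate of phototropism, had ratios of 0.408 under UV-B and 0.464 in pif45_wl. HLS1, needed for the apical hook, had 0.424 and 0.450. The DELLA repressor genes RGL1 and RGL3 had UV-B ratios of 0.397 and 0.532 and pif45_wl ratios of 0.482 and 0.555. ARF11, an auxin response factor, and the transcription factor gene TCP15 had UV-B ratios of 0.548 and 0.483. LNG1, which promotes longitudinal cell elongation, had ratios of 0.349 and 0.582.

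Single genes of other hormone pathways were members. BR6OX1, of the last steps of brassinosteroid synthesis, stood at 13.8, 12.4 and 18.1 CPM in Col_WL, 3.64, 5.73 and 4.29 CPM in Col_6h and 5.86, 6.00 and 7.24 CPM in pif45_wl, without overlap. GA20OX2, of gibberellin synthesis, stood at 5.87, 2.23 and 6.41 CPM in Col_WL, 1.72, 2.73 and 2.14 CPM in Col_6h and 2.14, 1.73 and 1.81 CPM in pif45_wl, where Col_WL replicate 2 lay inside the Col_6h range and just above pif45_wl. ACS11, of ethylene synthesis, stood at 4.29, 2.70 and 4.56 CPM in Col_WL, 1.96, 2.16 and 1.47 CPM in Col_6h and 1.07, 1.77 and 1.84 CPM in pif45_wl, without overlap but at low levels.

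Several members act on the cell wall. XTH8, XTH15 and XTH30 encode xyloglucan endotransglucosylases, which cut and rejoin wall xyloglucan. XTH15 stood at 109, 41.8 and 116 CPM in Col_WL, 25.3, 19.6 and 27.7 CPM in Col_6h and 26.5, 31.7 and 30.0 CPM in pif45_wl, with Col_WL replicate 2 above both groups but far below the other 2 libraries. XTH8 stood at 96.7, 84.8 and 101 CPM in Col_WL, 25.1, 34.8 and 22.1 CPM in Col_6h and 42.7, 43.3 and 46.9 CPM in pif45_wl, in 3 separate ranges. In XTH30, unlike most nuclear members, Col_WL replicate 2 was the highest Col_WL library, at 97.2, 124 and 98.7 CPM. The expansin genes EXPA8 and EXPA11 and the expansin-like gene EXLA2, whose products loosen walls, had UV-B ratios of 0.495, 0.327 and 0.555 and pif45_wl ratios of 0.405, 0.533 and 0.511. EXPA11 stood at 78.6, 44.1 and 73.8 CPM in Col_WL, 15.6, 28.4 and 19.3 CPM in Col_6h and 25.4, 39.4 and 39.3 CPM in pif45_wl, without overlap.

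Members whose RefSeq product text names the pectin methylesterase inhibitor superfamily numbered 6, of 26 such protein-coding genes with 3 CPM or more. That text does not tell inhibitors from pectin methylesterases, so the 6 are not to be read as 6 inhibitors. The group was noticed in the members' annotation and has no test. Its UV-B ratios were 0.188 for AT1G62770, 0.320 for ATPMEPCRD, 0.418 for AT3G43270, 0.450 for AT4G25260, 0.535 for AT3G49220 and 0.587 for AT5G20740. ATPMEPCRD stood at 352, 413 and 332 CPM in Col_WL, 117, 149 and 84.4 CPM in Col_6h and 76.3, 206 and 132 CPM in pif45_wl, with no overlap and with Col_WL replicate 2 highest. The hemicellulose synthesis gene CSLC04 had ratios of 0.365 and 0.540, and the arabinogalactan protein gene AGP7 had 0.280 and 0.418.

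Some members act in lipid and other metabolism. FAR1 encodes a fatty acyl reductase that makes the primary alcohols of suberin. It stood at 73.1, 10.2 and 82.8 CPM in Col_WL, 6.46, 11.0 and 9.55 CPM in Col_6h and 6.71, 5.89 and 5.76 CPM in pif45_wl, so Col_WL replicate 2 lay inside the Col_6h range. Its uvr8-6 libraries stood at 62.8, 12.1 and 59.1 CPM in white light and 34.4, 65.3 and 39.4 CPM under UV-B. ADS4 (AT1G06350), at chr1:1935227-1936841 on the minus strand of TAIR10.1, of the acyl desaturase-like family, stood at 8.44, 8.41 and 8.03 CPM in Col_WL, 0.940, 0.911 and 0.752 CPM in Col_6h and 3.5, 5.75 and 4.74 CPM in pif45_wl, in 3 separate ranges. CAT3, a catalase, stood at 4272, 3867 and 3894 CPM in Col_WL, 1544, 1890.0 and 1272 CPM in Col_6h and 1763, 2663 and 2029 CPM in pif45_wl. No CAT3 library of Col_WL was as low as any of those groups, and its uvr8-6 ratio was 0.854. FDH, a formate dehydrogenase, had ratios of 0.343 under UV-B, 0.362 in pif45_wl and 1.09 in uvr8-6.

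Suberin and root patterning genes among the members come from tissues whose share of a seedling could differ between groups. The 5 Casparian strip genes CASP1 to CASP5, markers of the root endodermis, summed to 244 to 358 CPM in Col_WL, 168 to 269 CPM in Col_6h, 263 to 352 CPM in the uvr8-6 groups and 88.3 to 152 CPM in pif45_wl. In the edgeR fit 4 of the 5 were called lower in pif45_wl, against 3.54% of all tested genes, with a median log2 fold change of -1.03. The median under UV-B in wild type was -0.13. No CASP gene was at 0 in any group. The 4 root hair markers summed to 83.6 to 133 CPM in Col_WL, 68.4 to 105 CPM in Col_6h and 78.3 to 145 CPM in pif45_wl, which overlap. The 7 markers of photosynthetic shoot tissue summed to 39534 to 47158 CPM in Col_WL and 60212 to 74062 CPM in pif45_wl, with no overlap, and to 40157 to 55162 CPM in Col_6h. None of the 7 was called in pif45_wl, where their median log2 fold change was 0.55. Under UV-B in wild type 3 were called higher, against 16.1% of all tested genes. In bulk RNA, fewer cells of a type and less RNA per cell cannot be told apart, and the part of tissue composition in the members' ratios was not tested. JKD, a zinc finger factor of root patterning, stood at 67.2, 69.4 and 64.3 CPM in Col_WL, 25.0, 25.2 and 24.4 CPM in Col_6h and 30.0, 38.7 and 31.9 CPM in pif45_wl, without overlap.

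The members include 1 microRNA gene, MIR408, whose mature products are known to target copper proteins. The mature sequences are shown because copper-linked genes appear in the set beside it, read 5′ to 3′ from TAIR10.1. Bases 2 to 8 are in capitals as a mark of position only, and no target match was searched.
ath-miR408-5p, chr2:19319866-19319886, plus strand: aCAGGGAAcaagcagagcatg
ath-miR408-3p, chr2:19319933-19319953, plus strand: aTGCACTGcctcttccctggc
The MIR408 locus stood at 3.4, 5.24 and 2.67 CPM in Col_WL, 1.76, 2.28 and 0.940 CPM in Col_6h and 1.50, 1.40 and 1.64 CPM in pif45_wl, without overlap. These reads come from the polyadenylated primary transcript, and mature microRNAs were not measured. COPT2, a copper transporter, stood at 15.7, 40.4 and 11.9 CPM in Col_WL, 15.4, 13.7 and 6.99 CPM in Col_6h and 7.14, 22.2 and 8.85 CPM in pif45_wl, where all 3 ranges overlapped. The log2 fold changes of COPT2 were -0.73 ± 0.59 (SE) under UV-B and -0.75 ± 0.59 in pif45_wl. In MIR408, COPT2 and FRO5 alike, Col_WL replicate 2 was the highest Col_WL library, the reverse of most nuclear members. Without that library MIR408 and COPT2, like FRO5, did not meet the rule.

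The rule set an upper limit on both low groups but not which of Col_6h and pif45_wl is the lower. The comparison between them rests on the same libraries that chose the members, and it joins a difference in light with a difference in genotype. edgeR's quasi-likelihood test over all 20833 tested genes called 20 of 188 members lower in Col_6h, against 12.7% of all genes, and 9 higher, against 17.6% of all genes, at a Benjamini-Hochberg adjusted p under 0.05. The rule removed genes that were high in either group, so fewer calls than among all genes were built in, and nothing is read from those shares. An unadjusted p under 0.05 was found in 42 members. All 29 calls were nuclear genes. The median log2 fold change of the nuclear members was 0.03, and that of all tested genes was 0.01.

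Members lower under UV-B than in pif45_wl included several auxin and wall genes. ADS4 had the greatest difference, with a log2 fold change of -2.32 ± 0.23 (SE; adjusted p = 3.7e-06). WAG2 had -1.14 ± 0.26 (adjusted p = 0.0041) and WAG1 had -0.83 ± 0.19 (adjusted p = 0.0039), both lower in all 3 Col_6h libraries than in any pif45_wl library. HB-3 had -1.2 ± 0.22 (adjusted p = 7.7e-04) and SAUR57 had -1.27 ± 0.28 (adjusted p = 0.0036). XTH8, at -0.60 ± 0.14 (adjusted p = 0.0057), was the only xyloglucan gene called. GH3.3 had -1.26 ± 0.41 (adjusted p = 0.03), a call that was lost without any of Col_6h replicate 1, Col_6h replicate 2 or pif45_wl replicate 1, with -0.68 in the last case. HEC1 had -1.65 ± 0.37 (adjusted p = 0.0035) and the protein kinase gene SNRK2.5 had -1.43 ± 0.34 (adjusted p = 0.0056), each lower in every Col_6h library than in any pif45_wl library. AT1G62770, of the pectin methylesterase inhibitor superfamily, had -1.02 ± 0.19 (adjusted p = 0.0011).

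Members lower in pif45_wl than under UV-B were fewer. IAA29 had a log2 fold change of 2.04 ± 0.60 (SE; adjusted p = 0.019), and all 3 pif45_wl libraries lay below all 3 Col_6h libraries. Its call was lost in 5 of the 6 fits that left out 1 of these libraries, with values from 1.87 to 2.07, and remained only without Col_6h replicate 1. SAUR13 had 1.32 ± 0.24 (adjusted p = 7.2e-04) and was called in all 6 such fits. SAUR1 had 1.02 ± 0.37 (adjusted p = 0.048), and its call was lost in 4 of the 6. ST2B, a sulfotransferase gene, had 1.2 ± 0.27 (adjusted p = 0.0038), and CYP86A4, of fatty acid hydroxylation, had 0.88 ± 0.21 (adjusted p = 0.0054). Of the 29 calls, 19 were made in all 6 of these fits. The count of higher calls fell to 4 without Col_6h replicate 2 and to 5 without pif45_wl replicate 1.

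**Figure D5:**
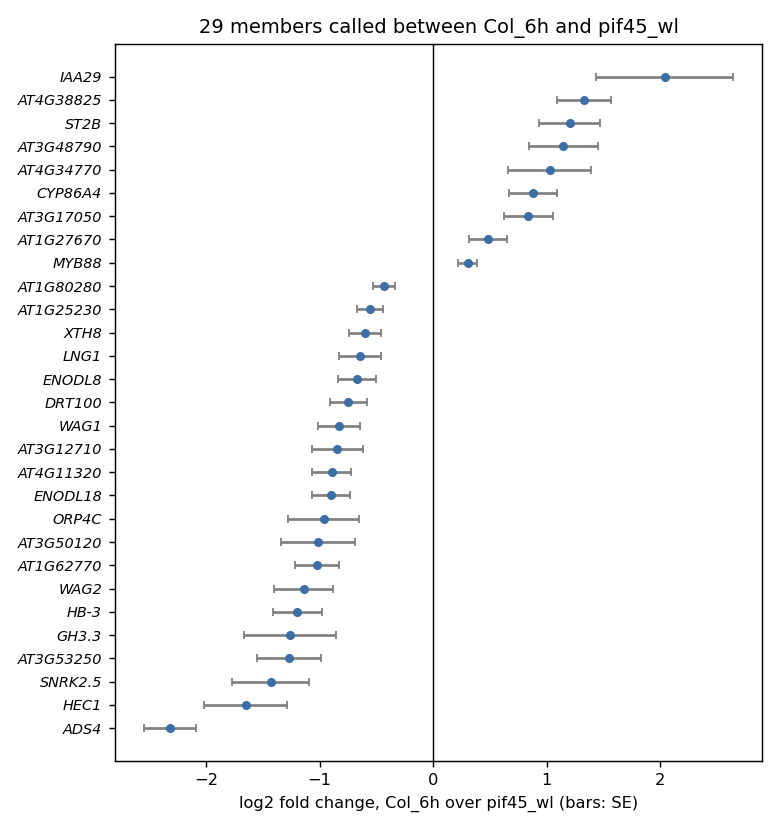
Log2 fold change of Col_6h over pif45_wl with its SE for the 29 members called by edgeR at an adjusted p under 0.05, from 3 libraries a group. The 20 genes left of 0 are lower under UV-B, led by ADS4 at -2.32, and the 9 right of 0 are lower in pif45_wl, led by IAA29 at 2.04.

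The other tested members were not called in this comparison, which does not show that both groups were at the same level. YUC8 had a log2 fold change of 0.02 ± 0.46, FDH of 0.03 ± 0.17, HAT2 of 0.22 ± 0.31 and PIN7 of 0.24 ± 0.17.

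Several of the families to which the members belong were also read as whole lists, which were chosen with earlier results of these data known. All counts in this paragraph are edgeR calls, to be read against all tested genes, of which 11.3% fell and 16.1% rose under UV-B in wild type and 3.54% fell and 1.72% rose in pif45_wl. Both contrasts share the Col_WL libraries. Of 66 tested SAUR genes, 18 fell and 6 rose under UV-B, with a median log2 fold change of -0.29 against -0.01 over all tested genes. The 18 became 8 without Col_WL replicate 1 or Col_6h replicate 1 and 10 without Col_6h replicate 3. In pif45_wl 20 SAUR genes fell, or 10 without Col_WL replicate 1 and 12 without pif45_wl replicate 1. Another 3 rose there, or 0 without Col_WL replicate 1 and 1 without Col_WL replicate 3 or pif45_wl replicate 1 or 3. Under UV-B in uvr8-6 the SAUR median was also -0.29, but edgeR called 0 of the 66, with 17 at an unadjusted p under 0.05, while DESeq2 called 0 lower and 1 higher and limma-voom called 0.

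The counts of the next lists are edgeR calls as well. Over all tested genes 11.3% fell and 16.1% rose under UV-B in wild type. In pif45_wl 3.54% of all tested genes fell and 1.72% rose, and both contrasts share the Col_WL libraries. Of 27 Aux/IAA genes, 1 rose and 6 fell under UV-B, the latter 3 without Col_WL replicate 1 or 3 or Col_6h replicate 1. In pif45_wl 11 fell, or 5 and 6 without Col_WL replicate 1 and 3, and 6 and 7 without pif45_wl replicate 1 and 3. Of 15 auxin carrier and kinase genes, 6 fell and 1 rose under UV-B, and 6 fell in pif45_wl. Both counts of 6 stayed within 1.5 times with any 1 library left out. Of 23 expansin genes, 10 fell and 2 rose under UV-B and 2 fell in pif45_wl. The last count was 0 without Col_WL replicate 1 or 3 or pif45_wl replicate 1 or 3, and 1 without uvr8-6_wl replicate 3 or uvr8-6_6h replicate 1 or 3. Of 29 xyloglucan endotransglucosylase genes, 8 fell and 4 rose under UV-B. In pif45_wl 6 of them fell, or 1, 3 and 2 without Col_WL replicate 1, 2 and 3 and 1 without pif45_wl replicate 1 or 3. Of 7 GH3 genes, 4 fell under UV-B, with a median of -1.10 in wild type and 0.09 in uvr8-6. In pif45_wl 2 GH3 genes fell and 1 rose. With 1 library left out, the GH3 genes that fell there ranged from 1 to 3 and those that rose from 0 to 1. The rise was not called without Col_WL replicate 1, 2 or 3. Of 13 auxin synthesis genes, YUC8 among them, 4 fell and 1 rose under UV-B, while in pif45_wl 0 fell and 2 rose. With 1 library left out, the 4 ranged from 0 to 5 and the 2 from 0 to 3. Of 10 gibberellin metabolism genes, GA20OX2 among them, 1 fell and 4 rose under UV-B, and 3 fell in pif45_wl.

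Several known PIF targets missed the set because of the uvr8-6 limit, and 89 genes met both upper limits but not that one. They included IAA19, HB-2, PIL1, YUC9 and 6 genes of the SAUR list. IAA19, another Aux/IAA gene, had means of 45.2 ± 19.6 (SD, n = 3) CPM in Col_WL, 7.47 ± 3.23 CPM in Col_6h and 4.72 ± 0.627 CPM in pif45_wl. In uvr8-6 it went from 63.7 ± 29.0 CPM in white light to 37.8 ± 10.2 CPM under UV-B, ranges that overlap within 1 SD, and the difference was not called. Just outside that limit lay CKX5 at 0.699 and FHL at 0.696, and just inside it YUC8, AT3G48790 and EXLA2, all at 0.706. At the UV-B limit CYP86A4 at 0.60 was inside and AT4G18670 at 0.601 outside. At the pif45_wl limit AT3G52520 at 0.60 was inside and AT4G29700 at 0.601 outside. Among the genes nearest the level limit, CAM8 had 3.08 CPM in Col_WL and GolS3, outside, 2.78 CPM.

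How firmly a gene belonged to the set varied. A total of 54 members, all nuclear, met the rule in every one of the 15 sets with 1 library left out. They included IAA29, AT4G11320, WAG1, WAG2, GH3.3, GH3.5, XTH15, ACS11, FAR1, CAT3, FDH, JKD, RGL1 and PKS4. With group medians in place of means, a choice added after the data were seen, 127 genes met the rule, of which 94 were shared with the 189 and none was organellar or rRNA.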

How the data were processed

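Per the labels' protocols, RNA from 15 pools of whole seedlings was made into stranded poly(A) libraries and sequenced as single-end 100 bp reads. The authors deposited 1 table of read counts per gene, and TAIR10 is the build in the submitters' processing notes, which also list edgeR 3.22.3, HTSeq 0.9.1 and STAR 2.5.3a. The table was used as deposited, with 19271180 to 30406689 reads a library. CPM was taken over column sums for the rule and the printed levels. Tests used edgeR 4.0.16 in R 4.3.3 on the counts, with TMM scaling, filterByExpr (20833 genes kept) and 1 term per group over all libraries. They used the quasi-likelihood F-test and Benjamini-Hochberg adjustment over all genes tested. Only the Col_6h and pif45_wl comparison was also run on simulated counts. Those held few changed genes and no library differences beyond depth and random spread, so they do not stand for these data. SE is the log2 fold change divided by the root of its F. DESeq2 1.42.0 and limma 3.58.1 were alternatives. The members and gene lists were chosen with earlier results of these data known. For members, calls in the contrasts the rule used are given only as description and are not a test of them.

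Text names the targeted genes, members on lists, the extremes of each ratio and of level, the called members of lowest p, genes next to each limit, families of 3 or more symbols and members with a printed promoter. Members named outside that rule, such as MIR408, COPT2, WAT1, FDH, CSLC04, AGP7, the 6 pectin genes and the other regulators, were chosen after their values were seen. Read as the mean before 0.5 was added, the 3 CPM minimum gave 189 genes. RefSeq symbols, loci and promoters of TAIR10.1 were matched by locus ID for 165 of the 189. P-values measure the spread between plates of seedlings. Without knowledge of duplicate reads, counts cover sampled reads, not molecules. Same-numbered Col_6h and pif45_wl libraries were not treated as pairs.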

Additional observations from a re-analysis of the deposited data

How the results depend on the processing

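The size of the set changed with its limits, its scaling and the libraries used. It held 120 genes with a minimum of 10 CPM, 86 with both upper limits at 0.5, 399 with both at 0.7, and 122 with the uvr8-6 limit at 0.8. It held 138 genes with TMM library sizes, all among the 189, and 170 with column sums over nuclear genes, of which 162 were shared, the latter added after the data were seen, as were group medians, with 127 genes of which 94 were shared. With 1 library left out it ranged from 143 to 238 genes, the lowest without Col_WL replicate 1 and the highest without Col_WL replicate 2, and it held 145 without uvr8-6_wl replicate 2 and 156 without uvr8-6_6h replicate 2. Read as the mean after 0.5 was added, the 3 CPM minimum gave 194 genes.

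Between Col_6h and pif45_wl, members called higher ranged from 4 to 13 and members called lower from 18 to 23 with 1 library left out. In their deviations from the group mean, same-numbered libraries of these groups correlated at -0.02, 0.29 and -0.10. These values cannot decide whether same-numbered libraries share more than a number. Those of Col_WL and pif45_wl correlated at 0.08, 0.19 and 0.17, and those of Col_WL and Col_6h at -0.32, -0.17 and 0.13. Same-numbered Col_WL and uvr8-6_wl libraries, which no test compared, correlated at 0.33, 0.60 and 0.39. A fit with the replicate block called 9 higher and 21 lower, and kept 28 of the 29 calls. DESeq2 kept all 29 and limma-voom kept 24. The log2 fold changes under UV-B of AT1G15405 and AT2G31141 were reversed, to 0.50 and 0.74, without Col_WL replicate 1, and with 1 library left out ranged from there down to -6.28 and -4.90 without Col_WL replicate 3. Among values of single genes and counts of lists, 8452 kept their call or stayed within the limits given next. In the Col_6h and pif45_wl comparison 53 were no longer past the threshold and 26 newly passed it. Counts of lists moved by over 1.5 times in 173 cases, and other single-gene values moved by more than their spread in 26. The cause was not tested. A depth of 19271180 reads or more leaves members near 3 CPM with the fewest reads, so counting error weighs most on their ratios.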
